A study of Mus musculus with 10 samples.

Results

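The potassium channel family was examined in the mouse hippocampus through every gene whose symbol begins with Kcn, which are the pore-forming subunits of potassium channels, the auxiliary subunits that bind them and a few noncoding transcripts of the same loci. Members were the genes on the array whose probes carry a RefSeq accession of a mouse Kcn gene, with Kcne2 excluded by the rule. There were 97 such genes, 93 coding and 4 noncoding, among 23462 genes named in this way, and they were read by 155 of 33767 named probes. Each gene was represented by 1 probe, the one with the highest mean signal. Of the 97 genes, 55 had 1 probe and 42 had more, up to 5.

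The series compared PGC-1αf/f mice with nPGC-1α mice under basal conditions, with 5 arrays per group, 1 Cy3-labelled sample per array and total RNA of the hippocampus. Both groups were C57BL/6 mice of 12 weeks, labelled as male, carrying a PGC-1α transgene with IRES-eGFP in the Rosa26 locus behind a floxed STOP cassette. PGC-1αf/f animals were littermates without Cre, in which the transgene is silent. nPGC-1α animals also carried Eno2-Cre, a recombinase driven by the promoter of neuron-specific enolase, so that neurons were to overexpress PGC-1α, a coactivator of transcription that promotes mitochondrial biogenesis. The labels name neurons as the cell type, but whole hippocampus was extracted, and in such bulk RNA fewer cells of a type and less RNA per cell cannot be told apart.

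Potassium channels set the resting potential of neurons, end each action potential and limit how fast the next one can follow. Voltage-gated (Kv) channels are tetramers that open on depolarisation, inward rectifiers and two-pore channels carry current near rest, and calcium- or sodium-activated channels link potassium efflux to activity. In the hippocampus A-type Kv4 channels filter dendritic signals, M-type Kcnq channels restrain repetitive firing, and the glial Kir4.1 channel clears potassium from the extracellular space.

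Several properties of the arrays bear on all values below. Ppargc1a, the gene of PGC-1α, averaged 2.20 ± 0.08 (SD, n = 5) in PGC-1αf/f and 2.20 ± 0.11 (SD, n = 5) in nPGC-1α by the probe with the highest signal (p = 0.952, two-sided exact permutation test), and it is not known whether this probe reads the transgene, so every direction rests on the labels. Kdm5d, Ddx3y and Uty, genes of the Y chromosome, were all well above background on only 4 arrays, namely nPGC-1α replicates 1, 3 and 5 and a single control, replicate 1, although all mice are labelled male. Eif2s3y, another Y-linked gene, was so on 2 control and 3 nPGC-1α arrays. The counts are therefore also given with the first 3 transcripts as a covariate. The additive noise that the scanner software estimates for dim spots was larger on every array labelled nPGC-1α (up to 20.9 signal units) than on any labelled PGC-1αf/f (5.16 to 8.98), and fewer gene spots were well above background there (67.2% to 73.4% against 74.5% to 81.5%). Replicates 1 to 4 of both groups were on slide 1, where all PGC-1αf/f arrays lay in row 1 and all nPGC-1α arrays in row 2, so that group and row cannot be told apart there. Replicate 5 of both groups lay in row 1 of slide 2.

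Most of the family was detected. A probe counts as well above background when the scanner software marks its signal so, and a level is the log2 signal minus the log2 75th percentile of the same array, so 0 stands for a spot at that percentile. On all 10 arrays together, 81 of the 97 genes (83.5%) were so marked, against 70.9% of all named genes. A further 10 were well above background on some arrays and 6 on no array: Kcna3, Kcnj1, Kcnk9, Kcnk18, Kcnmb3 and Kcnmb4os1. Kcnk9, the pore of TASK-3, and Kcnh7 are among the members listed here for hippocampal neurons, and both were too dim to be tested. The mean level was above 0 for 27 genes. Signals of different probes are not a measure of the relative amounts of different transcripts, so no order of abundance between channels is given.

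**Figure D1:**
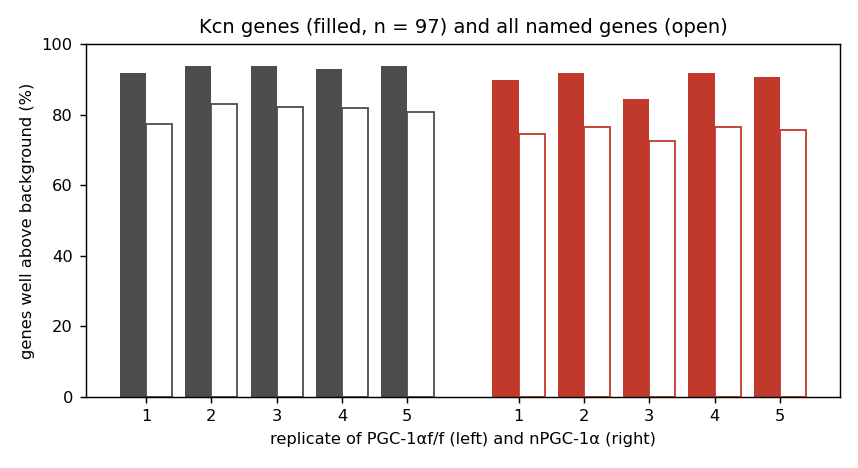
Share of genes well above background (%, y axis) on each of the 10 arrays, for the 97 Kcn genes (filled bars) and for all named genes (open bars), PGC-1αf/f in grey and nPGC-1α in red. The Kcn share ran from 91.8% to 93.8% among PGC-1αf/f arrays and from 84.5% to 91.8% among nPGC-1α arrays, and was above the share of all genes on each array.

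Detection of Kcn genes tended to be lower on nPGC-1α arrays, as it was over all named genes. The share of all named genes well above background was 77.4% to 83.0% on PGC-1αf/f arrays and 72.5% to 76.5% on nPGC-1α arrays. On the PGC-1αf/f arrays 89 to 91 Kcn genes were well above background, and on the nPGC-1α arrays 82 to 89, with the lowest number on replicate 3, which also had the largest additive noise (20.9 signal units). There were 8 Kcn genes (8.25%) well above background on all PGC-1αf/f arrays but not on all nPGC-1α arrays, among them Kcna10, Kcne1, Kcnh8, Kcnj15, Kcnk5, Kcnmb1 and Kcnq1. The opposite held for 0 Kcn genes. Over all named genes the corresponding counts were 1283 (5.47%) and 29 (0.124%). Kcng3 was so marked on 4 control and 0 nPGC-1α arrays, and Kcnh7 on 3 and 0. Their mean PGC-1αf/f levels of −7.17 and −7.33 lay below the detection limit of the nPGC-1α arrays, which averaged −6.26, so no fold can be stated for either. The part of array noise in these detection counts was not tested.

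No Kcn gene passed the test between the groups. Of the 89 genes that could be tested, 0 reached an adjusted p below 0.05 (limma, Benjamini-Hochberg over 39142 probes), where 0.00568% of all 17595 tested genes did, and the lowest adjusted p of the family was 0.218. At an unadjusted p below 0.05 there were 7 genes, 7.87% of those tested, against a background of 8.21% of all genes. Of these, 4 were higher on the arrays labelled nPGC-1α (Kcnip2, Kcnd1, Kcnab2 and Kcnj8; background 3.18%) and 3 were lower (Kcnt2, Kcnv2 and Kcnq1ot1; background 5.02%). With a fold of at least 1.5 as well, Kcnab2 remained among the higher genes (background 0.739%) and Kcnt2 among the lower ones (background 1.54%). The groups did not overlap for 2 higher genes, Kcnd1 and Kcnc2 (background 0.932%), and for 0 lower genes (background 1.43%). Kcnc2 had values on only 4 PGC-1αf/f against 3 nPGC-1α arrays, and fewer values separate more easily than 5 against 5. The counts moved with single arrays. The number of higher genes at an unadjusted p below 0.05 was 2 without PGC-1αf/f replicate 2 (background 2.24%) and 9 without replicate 3 or without replicate 4 of the same group (background 3.86% and 3.71%). The number of lower genes was 1 without PGC-1αf/f replicate 3 (background 5.55%) and 0 without PGC-1αf/f replicate 5 (background 6.1%).

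The 95% interval of the difference lay within a 1.5-fold change either way for 64 of the 89 genes (71.9%; 76.4% of all tested genes) and within a 2-fold change for 82. The median difference of the family was 0.01 on the log2 scale, beside −0.02 over all tested genes. Differences were positive for 50 genes and negative for 39, so 56.2% were positive against 43.3% of all genes. Under normexp background correction with quantile normalisation the median difference of the family was 0.07, and that of all genes is not given here. In that setting 3.66% of all genes were higher and 1.22% lower at an unadjusted p below 0.05, against 3.18% and 5.02% in the main fit. Of the 36 genes above the median signal of all tested genes, 0 were higher and 1 was lower at an unadjusted p below 0.05 (background 1.65% and 1.88%), and of the 53 genes below it, 4 were higher and 2 lower (background 4.72% and 8.17%). With Y-linked transcripts as a covariate, 5 genes were higher and 0 lower at an unadjusted p below 0.05 (background under the same model 2.96% and 5.22%), and 0 reached an adjusted p below 0.05. Under that model Kcnj8, Kcnt2, Kcnv2 and Kcnq1ot1 had unadjusted p from 0.0684 to 0.0921.

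**Figure D2:**
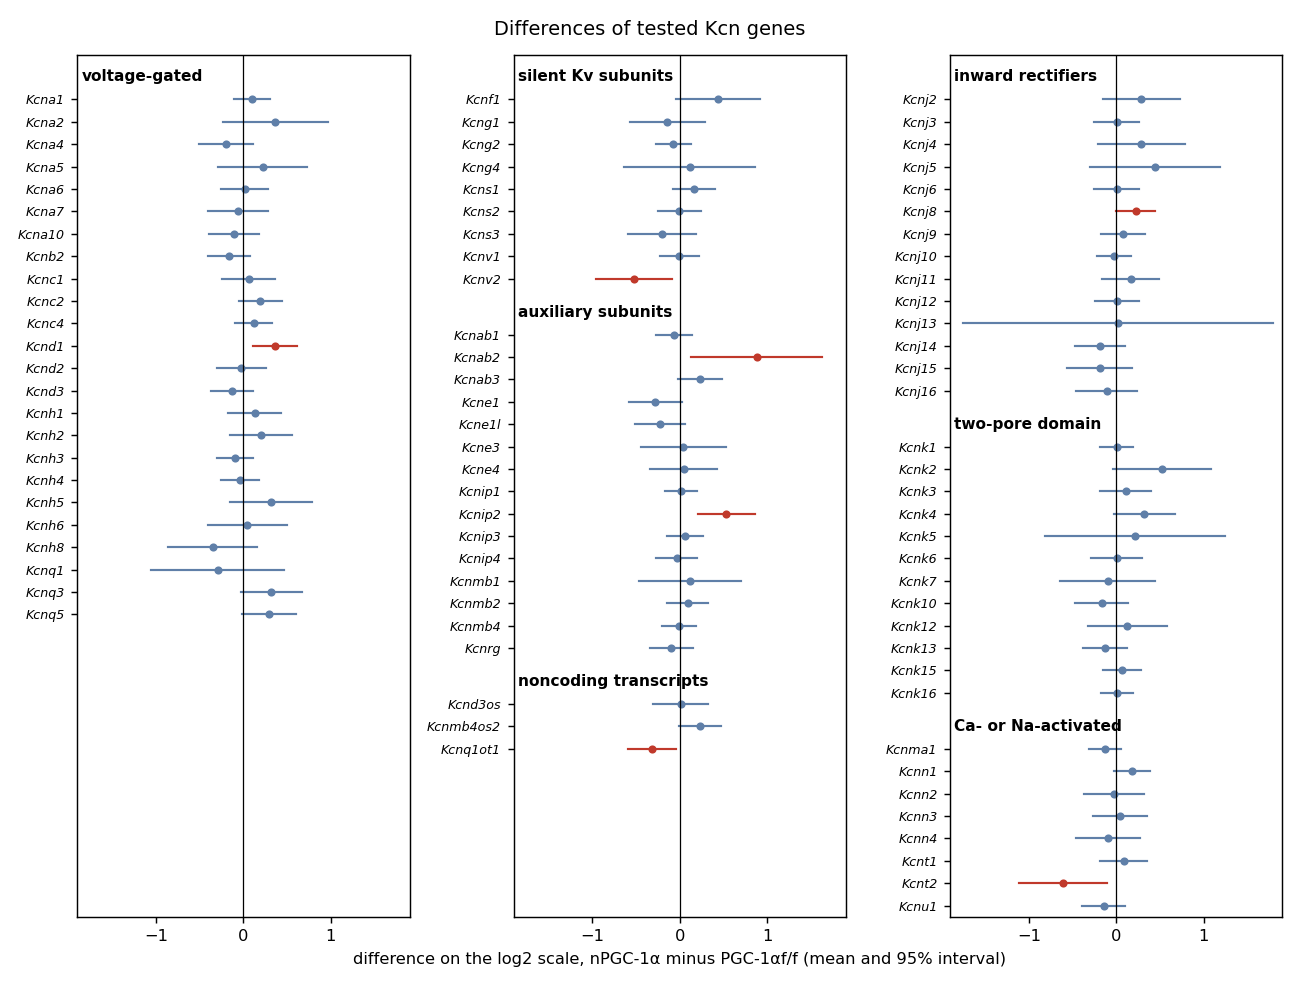
Difference in level between nPGC-1α and PGC-1αf/f (log2 scale, x axis) for 85 of the 89 tested Kcn genes, grouped by kind of subunit, with its 95% interval; red marks the 7 genes at an unadjusted p below 0.05. Most intervals include 0, and Kcnj13 has the widest, from −1.75 to 1.79.

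Among the pore subunits of voltage-gated channels, 24 of 30 were well above background on all arrays and 28 were tested. Their differences ran from −0.35 to 0.37, with a median of −0.0046, and 14 were positive and 14 negative. Of the 28, 1 (background 8.21%) had an unadjusted p below 0.05. This was Kcnd1, the Kv4.1 pore of A-type current, whose levels were −2.87, −3.39, −2.91, −2.97 and −3.02 on PGC-1αf/f replicates 1 to 5 and −2.49, −2.66, −2.78, −2.77 and −2.64 on nPGC-1α replicates 1 to 5. All 5 nPGC-1α arrays lay above all 5 PGC-1αf/f arrays, and PGC-1αf/f replicate 2 was the lowest. The difference was 0.36 ± 0.11 (SE), a 1.29-fold higher signal, with an unadjusted p of 0.00833 and an adjusted p of 0.259. The other Kcnd1 probe, which was also well above background on all arrays, differed by −0.14, and averaged over both probes the difference was 0.11 with an unadjusted p of 0.219.

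The other pores of A-type current had intervals that included 0. Kcnd2 (Kv4.2), the main dendritic A-type pore of pyramidal cells, had levels of 2.27 ± 0.15 (SD, n = 4) in PGC-1αf/f and 2.25 ± 0.20 (SD, n = 5) in nPGC-1α, and the 95% interval of the difference was −0.30 to 0.26. Kcnd3 (Kv4.3) differed by −0.12, with an interval of −0.36 to 0.12. Kcna4 (Kv1.4), an inactivating pore of axons, differed by −0.20, with an interval of −0.51 to 0.11.

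Kcnip2, which encodes KChIP2, a calcium-binding subunit of Kv4 channels, had the lowest p of the family. Its levels were −2.88, −2.74, −2.34, −2.25 and −2.78 on PGC-1αf/f replicates 1 to 5 and −2.07, −1.77, −2.32, −2.02 and −2.14 on nPGC-1α replicates 1 to 5. The groups met at their edges, since nPGC-1α replicate 3 lay between PGC-1αf/f replicates 3 and 4. The difference was 0.53 ± 0.15 (SE), a 1.45-fold higher signal, with an interval of 0.20 to 0.86, an unadjusted p of 0.00444 and an adjusted p of 0.218. It was 0.51 within slide 1 and 0.63 between the 2 arrays of slide 2, and 0.66 with Y-linked transcripts as a covariate (adjusted p = 0.248). The array holds 1 probe for this gene. The other KChIP genes had differences close to 0, and the interval was −0.17 to 0.19 for Kcnip1, −0.15 to 0.27 for Kcnip3 and −0.27 to 0.20 for Kcnip4. Whether Kcnip2 differs from them in its difference between groups was not tested. Dpp6 and Dpp10, membrane partners of the same channels, differed by 0.16 (unadjusted p = 0.259) and 0.27 (unadjusted p = 0.0645).

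**Figure D3:**
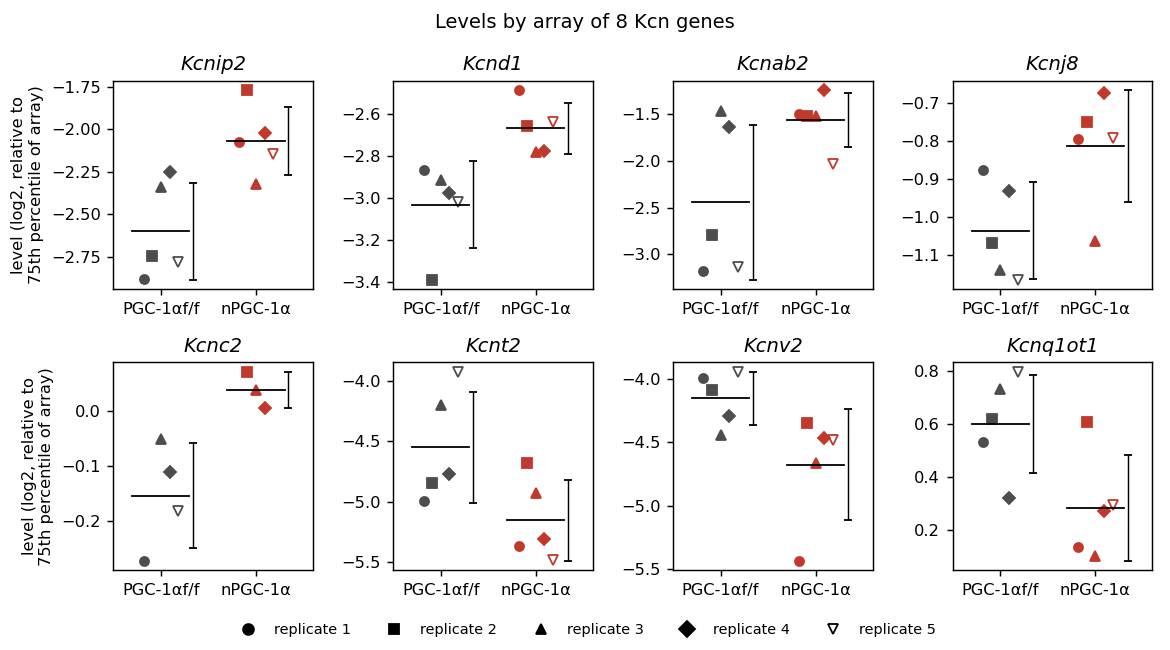
Level (log2 relative to the 75th percentile of the array, y axis) of 8 Kcn genes on each array, with the mean as a line and the SD as a bar beside it; symbols mark the replicate number. These are the 7 genes at an unadjusted p below 0.05 and Kcnc2, and only Kcnd1 and Kcnc2 have groups that do not overlap.

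The Kv1 genes described here did not differ beyond their spread. Kcna1 (Kv1.1), an axonal pore, had levels of 1.65 ± 0.15 and 1.75 ± 0.09 (SD, n = 5 each), and Kcna6 (Kv1.6), the Kcna probe with the highest signal, had an interval of −0.26 to 0.29. Kcna2 (Kv1.2) was uneven among the controls. Its level was −1.35, −1.40, −0.29, −0.48 and −0.85 on PGC-1αf/f replicates 1 to 5 and −0.33, −0.53 and −0.66 on the 3 nPGC-1α arrays with a value, and the difference of 0.37 had an unadjusted p of 0.203. Kcnb2 (Kv2.2), a delayed rectifier, differed by −0.16 with an interval of −0.41 to 0.08.

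The β subunits of Kv1 channels included the largest difference among the 89 tested genes. Kcnab2 had levels of −3.17, −2.79, −1.47, −1.64 and −3.14 on PGC-1αf/f replicates 1 to 5 and −1.50, −1.52, −1.52, −1.25 and −2.04 on nPGC-1α replicates 1 to 5. PGC-1αf/f replicates 3 and 4 sat within the nPGC-1α range and replicates 1, 2 and 5 below it. The difference was 0.88 ± 0.34 (SE), with an interval of 0.12 to 1.63, an unadjusted p of 0.0263 and an adjusted p of 0.352, and an exact permutation test over the arrays gave p = 0.0794. A dimmer Kcnab2 probe differed by 0.21 (unadjusted p = 0.252). Leaving out 1 array at a time gave 0.69 to 1.12, with an unadjusted p of up to 0.0679, reached without PGC-1αf/f replicate 1. Kcnab1 had an interval of −0.27 to 0.13, and Kcnab3 differed by 0.23 (unadjusted p = 0.0702).

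The Kv3 subfamily serves fast-spiking interneurons. Kcnc2 (Kv3.2) had levels of −0.27, −0.05, −0.11 and −0.18 on PGC-1αf/f replicates 1, 3, 4 and 5 and 0.07, 0.04 and 0.01 on nPGC-1α replicates 2, 3 and 4. The other 3 arrays carried outlier marks on its spot, which left 4 against 3 arrays, without overlap. The difference was 0.19 ± 0.11 (SE), the unadjusted p was 0.107, and the exact permutation p of 0.0571 is the smallest that 4 against 3 arrays can give. Its other probe was close to background and differed by −0.09. Kcnc1 (Kv3.1), the Kv3 probe with the highest signal, had levels of 1.14 ± 0.24 (SD, n = 5) and 1.19 ± 0.14 (SD, n = 4), with an interval of −0.25 to 0.37. The other tested Kcnc1 probes, dimmer but well above background on all arrays, differed by 0.51 (unadjusted p = 0.114) and 0.27 (unadjusted p = 0.148). Kcnc4 differed by 0.12.

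Kcnq3, a pore of the M-type current, had levels of −4.05, −3.84, −3.42, −3.41 and −3.87 on PGC-1αf/f replicates 1 to 5 and −3.31, −3.46, −3.16, −3.27 and −3.77 on nPGC-1α replicates 1 to 5. The groups overlapped, with PGC-1αf/f replicates 1, 2 and 5 the lowest. Kcnq3 and Kcnq5 had positive differences, 0.32 (unadjusted p = 0.0658) and 0.29 (unadjusted p = 0.0634). Kcnq1, the cardiac and epithelial member, passed the well-above-background mark on 5 PGC-1αf/f and 4 nPGC-1α arrays by its probe with the highest signal. By that probe it had a mean of −4.82 in PGC-1αf/f and differed by −0.29 with an interval of −1.05 to 0.46. Another tested Kcnq1 probe, of similar signal and well above background on all arrays, had the opposite sign, with a difference of 0.39 (unadjusted p = 0.093).

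Of the 4 noncoding transcripts, Kcnq1ot1, the imprinted antisense transcript of the Kcnq1 locus, was lower at an unadjusted p of 0.0266. Its levels were 0.53, 0.62, 0.73, 0.32 and 0.80 on PGC-1αf/f replicates 1 to 5 and 0.14, 0.61, 0.10, 0.27 and 0.29 on nPGC-1α replicates 1 to 5. nPGC-1α replicate 2 read like the controls and PGC-1αf/f replicate 4 like the nPGC-1α arrays. The difference was −0.32 ± 0.12 (SE), with an adjusted p of 0.352. Another tested probe of this transcript differed by −0.31 (unadjusted p = 0.154), and a pair of brighter probes that outlier marks kept out of the test differed by −0.34 and −0.15 with those spots kept. Whether labelling kept the strand is not stated, so signals of antisense transcripts and of overlapping genes may not be separate. Kcnmb4os2 differed by 0.23 (unadjusted p = 0.062) and Kcnd3os by 0.01.

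The ether-à-go-go subfamily, Kcnh, was led in signal among tested probes by Kcnh3 (Elk2), a forebrain pore, with levels of 1.69 ± 0.16 and 1.59 ± 0.07 (SD, n = 5 each) and an interval of −0.30 to 0.11. Kcnh1 (Eag1) had an interval of −0.17 to 0.43. Kcnh8 was well above background on 5 and 4 arrays of the groups, at −5.64, −4.69, −5.19, −5.99 and −5.28 on PGC-1αf/f replicates 1 to 5 and −5.59, −5.66, −6.11, −5.28 and −5.94 on nPGC-1α replicates 1 to 5. The groups overlapped widely, and its difference of −0.35 (unadjusted p = 0.159) was among the 5 most negative of the family. Kcnh6 had a probe at a level of 2.65 that outlier marks kept out of the test, so its value here, a difference of 0.05, comes from a probe at −5.15.

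Silent Kv subunits, which form no channel alone and modify Kv2 pores, had 9 of 10 genes tested. Kcnv2 (Kv8.2), best known from photoreceptors, had levels of −3.99, −4.09, −4.44, −4.29 and −3.95 on PGC-1αf/f replicates 1 to 5 and −5.44, −4.35, −4.66, −4.46 and −4.48 on nPGC-1α replicates 1 to 5. Of the nPGC-1α arrays, replicate 2 alone lay within the range of the controls, and nPGC-1α replicate 1 was far below the others. The difference was −0.53 ± 0.20 (SE), with an unadjusted p of 0.0225 and an adjusted p of 0.334. Without nPGC-1α replicate 1 it was −0.34 (unadjusted p = 0.0232). Kcnv1 (Kv8.1), a subunit of forebrain neurons, had an interval of −0.23 to 0.22. Kcnf1 (Kv5.1), the silent subunit with the highest signal, had levels of 0.22, 0.07, 1.05, 0.99 and 0.25 on PGC-1αf/f replicates 1 to 5 and 0.85, 1.00, 0.98 and 0.98 on nPGC-1α replicates 2 to 5. As with Kcnab2, PGC-1αf/f replicates 3 and 4 read like the nPGC-1α arrays and replicates 1, 2 and 5 read lower, and the difference of 0.44 had an unadjusted p of 0.0681. Kcns1 led its subfamily in signal with an interval of −0.08 to 0.40, Kcns2 had an interval of −0.25 to 0.24, and Kcng2 led the Kcng genes with an interval of −0.27 to 0.12.

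Inward rectifiers were tested for 14 of 15 genes, with differences from −0.19 to 0.44 and a median of 0.01. For the G protein-gated pores that hyperpolarise pyramidal cells the interval was −0.25 to 0.27 for Kcnj3 (GIRK1), −0.25 to 0.26 for Kcnj6 (GIRK2) and −0.18 to 0.33 for Kcnj9 (GIRK3). Kcnj5 (GIRK4), mainly an atrial pore, had levels of −3.19, −4.00, −4.43, −4.51 and −5.56 on PGC-1αf/f replicates 1 to 5, and all 5 nPGC-1α arrays lay between −3.97 and −3.81. Its difference of 0.44 (unadjusted p = 0.218) was within this control spread. Kcnj4 (Kir2.3) differed by 0.29 (unadjusted p = 0.219) and Kcnj11, the neuronal pore of ATP-sensitive channels, by 0.16 (unadjusted p = 0.294), beside 0.13 for its sulfonylurea receptor Abcc8.

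Members known from non-neuronal cells were all well above background on all 10 arrays, 8 of 8. Kcnj10, which encodes the astrocyte channel Kir4.1 and had the highest signal of the inward rectifiers, had levels of 2.73, 2.74, 2.67, 2.82 and 2.52 on PGC-1αf/f replicates 1 to 5 and 2.83, 2.62, 2.64, 2.67 and 2.59 on nPGC-1α replicates 1 to 5. The groups overlapped throughout, and the interval of the difference was −0.22 to 0.17. Its partner Kcnj16 (Kir5.1) had an interval of −0.46 to 0.24. All 8 astrocyte markers were well above background on all arrays, and the median deviation of that list from its mean ran from −0.11 to 0.32 among PGC-1αf/f arrays and from −0.06 to 0.05 among nPGC-1α arrays. Kcnk13 (THIK-1) and Kcnk6, both known from microglia, had intervals of −0.38 to 0.12 and −0.28 to 0.30. The median deviation of the microglia markers ran from −0.03 to 0.11 among PGC-1αf/f arrays and from −0.12 to −0.03 among nPGC-1α arrays. Of 6 tested, 1 was lower at an unadjusted p below 0.05 (background 5.02%), and their median difference was −0.15 (all genes −0.02). The median deviation of the 8 oligodendrocyte markers ran from −0.60 to 0.03 and from −0.35 to 0.47. Their median difference was 0.32 (all genes −0.02), with 0 of 8 at an unadjusted p below 0.05 (background 8.21%). The part of these cells in the Kcn values was not tested. Kcnn4 and Kcnj2 had intervals of −0.46 to 0.27 and −0.15 to 0.72.

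Kcnj8 (Kir6.1), the pore of the ATP-sensitive channel of pericytes and smooth muscle, had levels of −0.88, −1.07, −1.14, −0.93 and −1.16 on PGC-1αf/f replicates 1 to 5 and −0.80, −0.75, −1.06, −0.67 and −0.79 on nPGC-1α replicates 1 to 5. All nPGC-1α arrays except replicate 3 lay above all controls. The difference was 0.22 ± 0.10 (SE), with an unadjusted p of 0.0492 and an adjusted p of 0.418. With slide as a block the unadjusted p was 0.0519, and with Y-linked transcripts as a covariate 0.0718. Its sulfonylurea receptor in these cells, Abcc9, had levels of −3.09, −2.94, −2.50, −2.56 and −2.63 on PGC-1αf/f replicates 1 to 5 and −2.46, −2.18, −2.54, −2.23 and −2.60 on nPGC-1α replicates 1 to 5. The groups overlapped, and Abcc9 differed by 0.34 (unadjusted p = 0.0321, adjusted p = 0.370). The list of endothelial and pericyte markers, which holds Abcc9, had 8 of 8 genes well above background on all arrays, and its median deviation ran from −0.06 to 0.01 among PGC-1αf/f arrays and from −0.03 to 0.15 among nPGC-1α arrays. The part of these cells in the Kcnj8 value was not tested.

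Kcnj13 (Kir7.1), a channel of choroid plexus epithelium, varied more within groups than any other tested member. It read −0.52, −0.60, −0.82, 0.56 and −3.79 on PGC-1αf/f replicates 1 to 5 and −1.36, −0.75, 1.11, −1.93 and −2.16 on nPGC-1α replicates 1 to 5. The SD was 1.63 and 1.31 in the groups (n = 5 each), and the difference was 0.02 ± 0.80 (SE). The highest values came from nPGC-1α replicate 3 and PGC-1αf/f replicate 4, which were also the arrays where the choroid plexus list deviated most, by 2.96 and 1.95. That list had 6 of 8 genes well above background on all arrays, and its median deviation ran from −0.95 to 1.95 among PGC-1αf/f arrays and from −0.89 to 2.96 among nPGC-1α arrays. The lowest Kcnj13 level, on PGC-1αf/f replicate 5, went with the lowest deviation of the list (−0.95). Between these extremes level and list did not always run together. On PGC-1αf/f replicates 1 and 2 and nPGC-1α replicate 2 the list deviated by −0.77, 0.84 and −0.88. Kcnj13 read −0.52, −0.60 and −0.75 there. The part of choroid plexus tissue in these levels was not tested.

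**Figure D4:**
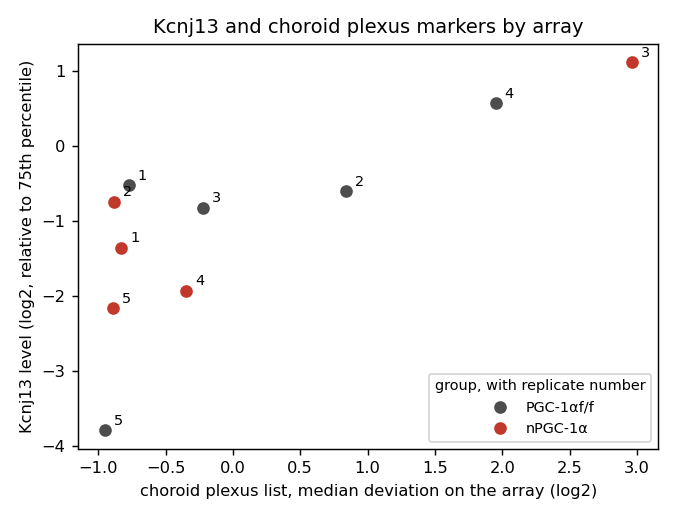
Level of Kcnj13 (log2 relative to the 75th percentile of the array, y axis) against the median deviation of 8 choroid plexus markers from their means over the arrays (log2, x axis), 1 point per array with its replicate number. nPGC-1α replicate 3 and PGC-1αf/f replicate 4 are highest on both axes, at 1.11 and 0.56 for Kcnj13.

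Two-pore channels carry background current at rest, and 12 of 14 were tested, with differences from −0.17 to 0.53 and none at an unadjusted p below 0.05 (8.21% of all genes were). Kcnk1 (TWIK-1), which had the highest signal among them, had levels of 1.78 ± 0.13 and 1.78 ± 0.06 (SD, n = 5 each) and an interval of −0.19 to 0.19. Kcnk2 (TREK-1), a mechanosensitive and lipid-sensitive pore, had levels of −4.23, −4.24, −3.72, −3.57 and −4.78 on PGC-1αf/f replicates 1 to 5 and −3.78, −3.62, −2.97, −3.43 and −4.11 on nPGC-1α replicates 1 to 5. The groups overlapped, and the difference of 0.53 ± 0.25 (SE) had an unadjusted p of 0.063. Kcnk4 (TRAAK) differed by 0.32 (unadjusted p = 0.0688) and Kcnk3 (TASK-1) by 0.11.

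Among calcium- and sodium-activated pores all 8 were tested. Kcnma1, the BK channel that shortens action potentials, had levels of 2.48 ± 0.11 and 2.35 ± 0.08 (SD, n = 5 each), and the difference of −0.13 had an interval of −0.32 to 0.05. All 5 Kcnma1 probes had negative differences, from −0.30 to −0.09. Kcnmb4, the neuronal β subunit of BK channels, had an interval of −0.21 to 0.19. Small-conductance pores of the afterhyperpolarisation had intervals of −0.03 to 0.39 for Kcnn1, −0.37 to 0.32 for Kcnn2 and −0.27 to 0.35 for Kcnn3. Of the sodium-activated pair, Kcnt1 (Slack) had an interval of −0.19 to 0.36. Kcnt2 (Slick) had levels of −4.99, −4.85, −4.20, −4.77 and −3.93 on PGC-1αf/f replicates 1 to 5 and −5.37, −4.68, −4.93, −5.31 and −5.48 on nPGC-1α replicates 1 to 5. The groups overlapped, with PGC-1αf/f replicates 3 and 5 the highest. The difference was −0.61 ± 0.23 (SE), a 1.52-fold lower signal, with an unadjusted p of 0.0223 and an adjusted p of 0.333. It was −0.37 within slide 1 (unadjusted p = 0.114) and −1.55 between the 2 arrays of slide 2. Kcne1l led the Kcne genes in signal with an interval of −0.51 to 0.06, and Kcnu1 and Kcnrg had intervals of −0.39 to 0.10 and −0.35 to 0.15.

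Probes of the same gene did not always give the same value. For 31 genes 42 further probes were tested, and 22 of these had the sign of the probe with the highest signal and 20 the opposite sign. Their median difference was 0.24, against 0.05 for the corresponding probes of all genes. Of the 42, 8 were higher and 2 lower at an unadjusted p below 0.05 (background 6.96% and 5.6%), and 0 reached an adjusted p below 0.05. The higher ones belonged to Kcnj12 (0.50), Kcnj4 (0.46), Kcnk4 (0.45), Kcnn1 (0.37), Kcnn2 (0.67), Kcnn3 (0.63), Kcnn4 (0.55) and Kcnt1 (0.29), and the lower ones to Kcnc4 (−0.49) and Kcnma1 (−0.30). For Kcnj12, Kcnn2 and Kcnn3 the probe with the highest signal differed by 0.01, −0.03 and 0.04.

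**Figure D5:**
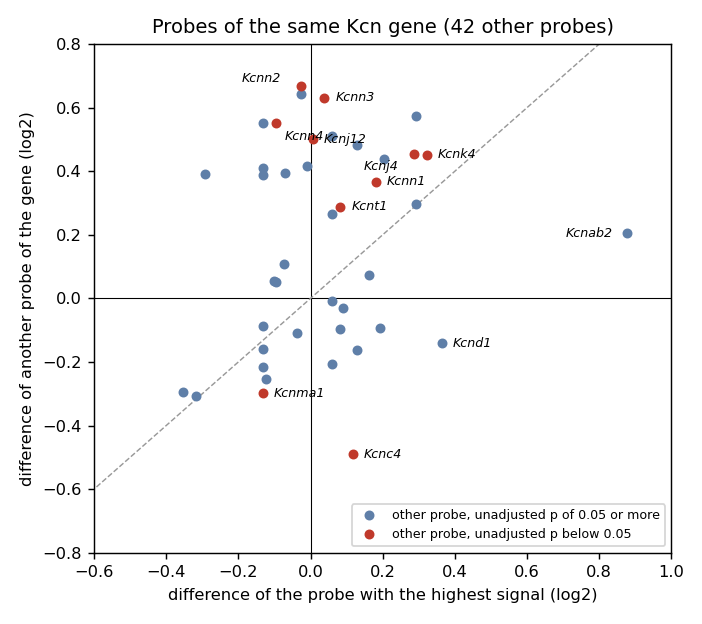
Difference between nPGC-1α and PGC-1αf/f (log2) of 42 further probes of Kcn genes (y axis) against the difference of the probe with the highest signal of the same gene (x axis), with red for an unadjusted p below 0.05 and a dashed line where both are equal. Of the 42 points, 27 lie above the line, and Kcnd1 and Kcnab2 lie below it.

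The gap between probes of a gene also varied from array to array. Over 25 Kcn genes with complete values, the median gap between the other probes and the probe with the highest signal, relative to its mean over arrays, was −0.06, −0.02, 0.08, 0.09 and −0.08 on PGC-1αf/f replicates 1 to 5 and 0.01, 0.07, 0.03, 0.05 and −0.08 on nPGC-1α replicates 1 to 5. Over 4291 genes of the whole array it was −0.09, −0.06, 0.17, 0.09 and −0.27 on PGC-1αf/f replicates 1 to 5 and −0.01, 0.11, 0.11, 0.10 and −0.12 on nPGC-1α replicates 1 to 5. PGC-1αf/f replicates 1, 2 and 5, which read low for Kcnab2 and Kcnf1, had negative median gaps in both sets and replicates 3 and 4 positive ones. The gap of Kcnab2 itself had the opposite sign on each of these arrays, and Kcnf1 has 1 probe and so no gap. Median gaps were negative in both sets on nPGC-1α replicate 5 as well. Kcnf1 read 0.98 there, like its group, and Kcnab2 −2.04, the lowest of its group. The part of the median probe gap of an array in the differences was not tested. Within groups, the SD was larger on the PGC-1αf/f arrays for 65 of the 89 genes (73%; 65.7% of all genes), with medians of 0.21 and 0.16.

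Promoter windows of RefSeq (build GRCm38.p6, from 250 bases before to 50 bases after a start) were available for 71 of the 97 genes. They were searched on both strands for the letters of binding sites of factors that PGC-1α is known to coactivate. The half-site of estrogen-related receptors, AAGGTCA, was found in 3 of 95 Kcn windows (3.16%) and in 4.72% of all 32851 windows. The palindromic consensus site of NRF-1 (nuclear respiratory factor) was found in 0 of 95 and in 0.971% of all windows. The windows around the 3 half-sites are shown on the strand of the gene, with the half-site or its reverse complement in capitals, because they are the only Kcn promoters with a match and so can be set beside the values of their genes. They lie at chr12:17176932-17176988 (minus strand) for Kcnf1, chr1:192190529-192190585 (plus strand) for Kcnh1 and chr11:110967818-110967874 (plus strand) for Kcnj16.
Kcnf1: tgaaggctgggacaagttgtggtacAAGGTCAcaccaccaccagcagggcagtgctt
Kcnh1: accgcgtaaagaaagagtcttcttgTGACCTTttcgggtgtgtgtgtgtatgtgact
Kcnj16: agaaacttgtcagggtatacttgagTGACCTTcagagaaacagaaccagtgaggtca
These 3 genes differed by 0.44, 0.13 and −0.11, and none had an unadjusted p below 0.05 (8.21% of all genes did).

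Genes that work with Kcn channels were examined from a list of partners and a list of other cation channels. Of 23 listed partners 20 were tested, and 0 reached an adjusted p below 0.05. At an unadjusted p below 0.05, 2 were higher, Abcc9 and Lrrc55, a γ subunit of BK channels (0.51, unadjusted p = 0.0319), and 0 were lower, where 3.18% and 5.02% of all genes were. Their median difference was 0.01. Lrrc55 is also listed here with markers of the medial habenula, and that list deviated most on PGC-1αf/f replicate 2 (1.62). Lrrc55 itself read −0.80 on that array, within the range of the other PGC-1αf/f arrays (−1.47 to −0.62). The part of habenula tissue in its difference was not tested. Of 17 HCN and voltage-gated sodium channel genes 14 were tested, 0 had an unadjusted p below 0.05 (background 8.21%), and their median difference was 0.01. For the pacemaker channel Hcn2 the difference was 0.09, and for the axonal sodium channel Scn8a −0.13 (unadjusted p = 0.315).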

How the data were processed

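Hippocampal RNA of 10 mice was hybridised to Agilent 1-colour arrays. The deposited scanner files hold intensity values per spot, already background-subtracted by Feature Extraction 11.5.1.1 per the file headers. The authors also deposited a table of normalised log2 values, used here as an alternative. For each array the 75th percentile of the processed signal over gene spots was subtracted on the log2 scale, spots with outlier marks were left out, and spots of one probe were averaged. A probe was tested when every array of 1 group or of both marked it as well above background and each group had 3 or more values. Groups were compared with limma 3.58.1 in R 4.3.3 (lmFit and eBayes) without covariates, with Benjamini-Hochberg adjustment over all tested probes. The steps were tested on simulated data. The p-values measure the spread between these arrays, whose number limits the precision.

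Members and lists were chosen with earlier results of these data known. Genes named with values were the gene with the highest signal of each subfamily, those at an unadjusted p below 0.05, the 5 largest differences in each direction, and preset members of non-neuronal cells and hippocampal neurons. Others named for a probe, an array mark, a promoter match or a near value were chosen after their values were seen. Probe sequences were not used here, and the values of a few genes are not reported here.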

Additional observations from a re-analysis of the deposited data

Results flagged for a closer look

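Within 175 sets of 4 or 5 values, 14 had 1 array set apart from the rest of its group by Dixon's criterion, where about 1 in 20 sets, or 8.75, would be so by chance. nPGC-1α replicate 3 had 82 Kcn genes well above background, where the remaining arrays of its group had 87 to 89.

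Among the PGC-1αf/f arrays, replicate 1 was set apart for Kcnd3 (2.53, others 2.04 to 2.17), Kcnj6 (−3.74, others −3.37 to −3.24) and Kcnk13 (−2.10, others −1.68 to −1.55). Replicate 2 was set apart for Kcna6 (2.04, others 2.42 to 2.56) and Kcnd1 (−3.39, others −3.02 to −2.87). Replicate 5 was set apart for Kcnj15 (−5.80, others −6.02 to −6.00).

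Among the nPGC-1α arrays, replicate 1 was set apart for Kcnip4 (2.13, others 1.78 to 1.86) and Kcnv2 (−5.44, others −4.66 to −4.35), and replicate 2 for Kcnf1 (0.85, others 0.98 to 1.00). Replicate 3 was set apart for Kcng1 (−3.00, others −2.47 to −2.28). Replicate 5 was set apart for Kcna10 (−6.47, others −5.95 to −5.77), Kcnmb4 (2.00, others 2.08 to 2.09) and Kcnu1 (−2.09, others −2.47 to −2.39).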

How the results depend on the processing

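Under 27 alternative settings, 3 of them chosen after seeing the data, 0 Kcn genes reached an adjusted p below 0.05 except with no filter on dim probes. That setting called 2, Kcnj1 (1.01, adjusted p = 0.0289) and Kcnmb3 (0.89, adjusted p = 0.0431), both well above background on no array. The share of all genes called at that adjusted p with no filter is not given here, so these 2 calls have no background beside them. The 4 higher genes at an unadjusted p below 0.05 became 7 with the authors' log2 values (background 3.8%), 9 with the mean over probes of a gene (background 4.31%) and 7 within slide 1 alone (background 3.25%), and 2 to 9 when 1 array was left out. The 3 lower genes became 0 with Y-linked transcripts as a covariate, 5 with no filter (background 4.7%) and 1 with normexp and quantile normalisation (background 1.22%), and 0 to 4 when 1 array was left out. The 2 genes that also passed a fold of 1.5 became 1 with the authors' log2 values, with quantile normalisation, with normexp or within slide 1 alone, 0 by the exact Mann-Whitney test and 5 with no filter, and 0 to 4 when 1 array was left out. The share of all genes passing this fold under these settings is not given here. At an unadjusted p below 0.05 alone, 11.4% of all genes were higher and 4.7% lower with no filter. Leaving out 1 array gave 2.1% to 3.86% of all genes higher and 3.3% to 6.1% lower at that p. The median difference over tested Kcn genes was 0.0741 with normexp and quantile normalisation. Under that setting 3.66% of all genes were higher and 1.22% lower at an unadjusted p below 0.05. Kcnn2 turned from −0.03 to 0.66 (unadjusted p = 0.0323) with the mean over probes, which took only probes with a value on every array and so left out its probe with the highest signal. The sign was kept under every setting for 42 of 89 genes. Kcnip2 had an unadjusted p below 0.05 in all 27 settings, with differences from 0.46 to 0.68 and adjusted p from 0.0668 to 0.542. That unadjusted p was reached by Kcnd1 in 25, Kcnv2 in 24, Kcnab2 in 21, Kcnt2 and Kcnq1ot1 in 19 each and Kcnj8 in 12. These genes were picked by their p in the main fit. Kcnip2 has 1 probe without outlier marks, so settings that average probes or keep outlier spots left its values unchanged. Other causes were not tested.

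The labels do not say what a replicate number shares, and the numbers were not taken as pairing: the correlation of same-numbered deviations was 0.24, 0.05, 0.14, 0.21 and 0.42 for replicates 1 to 5, and only replicates 1 and 5 correlated best with their own number. With a replicate block, 7 genes were higher and 5 lower at an unadjusted p below 0.05 (background under the same fit 4.41% and 7.08%) and 0 reached an adjusted p below 0.05.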
